A study of Saccharomyces cerevisiae with 9 samples.

Results

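The genes described here encode the nuclear part of oxidative phosphorylation in the budding yeast Saccharomyces cerevisiae: succinate dehydrogenase, the cytochrome bc1 complex, cytochrome c, cytochrome c oxidase, the ATP synthase and the NADH dehydrogenases of mitochondria. They were taken by name as 36 genes, and each was matched through its systematic name to 1 of the 6947 probes of the array. Total RNA of the mutator line m8 after 6700 generations of evolution was compared with RNA of the mutator ancestor it came from, on 3 arrays whose titles call them repeats (here the repeat round) and on 3 arrays without that word (here the first round). As the control of the study, a non-mutator strain evolved for 6700 generations was compared with its non-mutator ancestor on 3 arrays. All cultures had been grown in YPD, a rich glucose medium, to an OD600 of about 0.3. Line m8 is a single evolved line, and the labels name neither its mutator allele nor any other genotype. The repeat arrays are titled with the same evolved numbers, 1, 2 and 3, as the first round, but with ancestor numbers 1, 1 and 3, against 1, 2 and 3 in the first round, so that repeat arrays 1 and 2 share an ancestor number. Nothing says whether equal numbers mean the same RNA or fresh cultures. Nor do the labels tie replicates to separate cultures, so the p-values rest on a spread between samples that may be only technical.

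In respiration, electrons from NADH and succinate pass through ubiquinone, the cytochrome bc1 complex (complex III), cytochrome c and cytochrome c oxidase (complex IV) to oxygen. Complexes III and IV pump protons, and the ATP synthase uses the resulting gradient to make ATP. Saccharomyces cerevisiae has no proton-pumping complex I and oxidises NADH with single-subunit dehydrogenases instead. Most of these subunits are encoded in the nucleus, and on glucose yeast ferments and keeps many of their genes partly repressed. The Hap2/3/4/5 complex, in which Hap4 is the regulated subunit, and the heme-responsive factor Hap1 are the best known activators of these genes.

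Each value is the log2 of the ratio, evolved strain to ancestor, on 1 array, centred on the median of all probes of that array, so that 0 is the ratio of the middle probe and negative values mean less RNA in the evolved strain. Evolved over ancestor is the likely direction, from the dyes in the labels. Centring lowered the mutator arrays by 0.078 to 0.10 and the non-mutator arrays by at most 0.017. Over all probes the SD of the log2 ratios was 0.85 to 1.001 on mutator and 0.28 to 0.30 on non-mutator arrays. RNA came from whole cultures, so fewer cells with a transcript and less of it per cell cannot be told apart. Of 324 member values, 6 were missing and 1 lay at the lowest ratio of its array, and 34 of the 36 genes had a measured value on all 9 arrays. A gene was called where limma's test, fitted on all probes, gave a Benjamini-Hochberg adjusted p under 0.05. Mutator means average the repeat and first-round arrays of an evolved RNA number, which gives 3 replicates, and each round was also tested alone. Replicate 2 thus joins ancestor numbers 1 and 2, and replicates 1 and 2 are not fully separate on the ancestor side.

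The 2 mutator rounds gave different pictures of these genes. On the repeat arrays the median of the 34 genes with all values was 0.18, 0.14 and -0.050, against -0.67, -0.57 and -0.65 on the first-round arrays 1, 2 and 3. In the first round alone 31 of 35 genes tested were lower than in the ancestor and 0 were higher, while 36.3% of all probes tested were lower. In the repeat round alone 10 were lower and 9 were higher, where 34.8% and 34.2% of all probes were. All 35 genes stood higher on repeat than on first-round arrays, as did 47.6% of probes at large. The difference between rounds passed for 17 of the 35, all of them higher in the repeat, against 2.78% of all probes tested that were called higher and 1.73% called lower in this comparison. On 30 of the 34 probes with 6 mutator values every repeat array lay above every first-round array, a pattern held by 14.3% of all such probes.

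**Figure D1:**
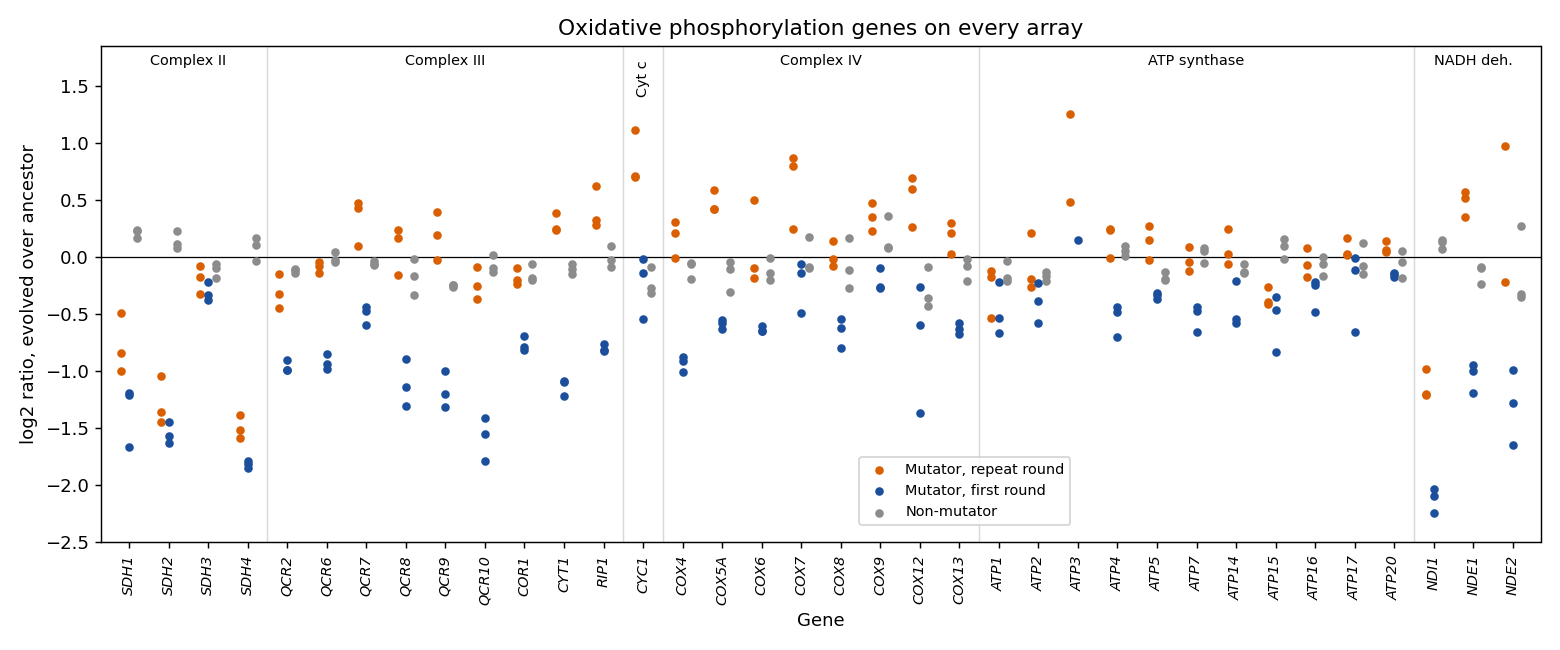
Log2 ratios of evolved strain over ancestor (vertical axis) for the 36 genes (horizontal axis, by complex), with 1 point for each array of the mutator repeat round, the mutator first round and the non-mutator. First-round points lie below 0 for all genes but ATP3, while repeat points lie at or above -0.53 outside complex II and NDI1.

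The number of genes called between rounds depended on which evolved RNA numbers were left in: without number 2 or number 3, 0 members and 0 probes of any kind passed in limma, though 24 and 25 members had an unadjusted p under 0.05. Without number 1, 6 members passed as higher, where 1.34% of all probes did. The members tested stood above 0 in each of these cases. What changed between the rounds, be it culture, RNA, labelling or hybridisation, is not given in the labels and cannot be told apart.

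Patterns across both rounds split the genes into sets. A set of 10 genes was lower in both rounds tested alone: SDH1, SDH2, SDH3, SDH4, NDI1, QCR2, QCR10, COR1, ATP1 and ATP15. This pattern was held by 28.5% of all probes tested in both, so 10 of 35 is near the share of the whole array. A further 7 genes were lower in the first round and higher in the repeat, namely COX5A, COX9, COX12, CYT1, NDE1, QCR7 and RIP1, a pattern of 1.01% of all probes. Another 14 were lower in the first round and did not pass in the repeat (7.25% of all probes). COX7 and CYC1 did not pass in the first round and were higher in the repeat (6.01% of all probes), and ATP17 and ATP20 passed in neither (15.6% of all probes). Patterns with a higher call in the first round were held by 0 of the 35 genes: 27% of all probes were higher in both rounds, 7.9% were higher in the first and did not pass in the repeat, and 0.64% were higher in the first and lower in the repeat. Likewise 0 genes were lower in the repeat without passing in the first round, as 6.06% of all probes were.

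Averaged over both rounds, 26 of the 35 genes fell in the mutator and 1 rose, CYC1, where 37.8% of all probes fell and 37.3% rose. The median of the 35 was -0.28, and that of all probes tested was 0.018. The call held under every alternative run for 8 genes: SDH1, SDH2, SDH4, NDI1, QCR2, QCR10, COR1 and ATP15. Because each mutator replicate mixes both rounds, its SD leaves out the difference between them. With the 6 mutator arrays taken singly as replicates, 16 of the 35 fell and 0 rose, where 35.2% of all probes fell and 35.6% rose. With the round as a random block 13 of the 35 fell and 0 rose, where 34% of all probes fell and 33.9% rose.

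Succinate dehydrogenase (complex II), which oxidises succinate to fumarate in the citric acid cycle and passes the electrons to ubiquinone, fell as a whole: 4 of 4 genes were lower in the mutator mean and in each round alone. SDH4, which encodes a membrane anchor subunit, stood at -1.38, -1.59 and -1.52 on the repeat arrays and -1.82, -1.85 and -1.78 on the first-round arrays, against 0.16, 0.10 and -0.033 on the non-mutator arrays. All 6 mutator values lay far below the 3 non-mutator values. The iron-sulfur subunit gene SDH2 stood at -1.04, -1.44 and -1.36 on repeat and -1.57, -1.63 and -1.45 on first-round arrays, against 0.080, 0.23 and 0.11 in the non-mutator. SDH1, the flavoprotein subunit gene, had -0.49, -0.997 and -0.84 on repeat and -1.67, -1.21 and -1.19 on first-round arrays, against 0.17, 0.24 and 0.23 in the non-mutator. Both genes separated fully from the non-mutator too. The mutator means were -1.66 ± 0.058 for SDH4, -1.42 ± 0.12 for SDH2 and -1.07 ± 0.046 for SDH1 (SD, n = 3), with adjusted p of 1.5e-06, 3.9e-06 and 3.2e-06 in limma. On the linear scale these are ratios of 0.317, 0.375 and 0.478 to the ancestor.

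The fourth subunit gene moved less. SDH3, which encodes the other membrane anchor and whose product is also part of the TIM22 protein translocase, stood at -0.082, -0.17 and -0.32 on repeat and -0.38, -0.22 and -0.33 on first-round arrays, against -0.058, -0.18 and -0.10 in the non-mutator. Mutator and non-mutator values of SDH3 overlapped, and its mutator mean of -0.25 ± 0.067 (SD, n = 3) passed with an adjusted p of 0.0034. Its difference from the non-mutator did not pass (-0.14, 95% interval -0.30 to 0.028). Between rounds, 0 of the 4 complex II genes passed in limma (2 at an unadjusted p under 0.05), where 2.78% of all probes were higher. The differences ran from 0.12 (SDH3) to 0.58 (SDH1), although repeat values of SDH1, SDH2 and SDH4 all lay above their first-round values.

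Of the NADH dehydrogenase genes, 3 of 3 fell in the mutator mean and in the first round alone, where 37.8% and 36.3% of all probes did. In the repeat round alone 1 was lower and 1 higher, where 34.8% and 34.2% of all probes were. NDI1, the internal dehydrogenase gene that feeds matrix NADH into the chain, stood at -0.99, -1.21 and -1.20 on repeat and -2.03, -2.24 and -2.10 on first-round arrays, against 0.15, 0.13 and 0.066 in the non-mutator. Its mutator mean of -1.63 ± 0.11 (SD, n = 3; adjusted p = 1.6e-06) is a ratio of 0.324, and it was called lower in both rounds. The rounds still differed, by 0.99 (95% interval 0.71 to 1.28, adjusted p = 0.0091). NDE1, which encodes the main external dehydrogenase, stood at 0.57, 0.51 and 0.35 on repeat arrays but -1.19, -0.94 and -0.998 on first-round arrays, against -0.23, -0.084 and -0.096 in the non-mutator. It was thus called higher in one round (adjusted p = 0.00094) and lower in the other (adjusted p = 2.3e-05), and its difference between rounds of 1.52 was the largest of any member that passed (adjusted p = 0.0038). Its mean over both rounds was -0.28 ± 0.061 (SD, n = 3; adjusted p = 0.0024). NDE2, the second external dehydrogenase gene, had 0.97 and -0.22 on repeat arrays 1 and 2 with no value on array 3, -1.65, -0.99 and -1.28 on first-round arrays, and 0.27, -0.33 and -0.35 in the non-mutator. The difference between rounds of NDE2 was 1.68, with a wide 95% interval of 0.68 to 2.68, and it did not pass (adjusted p = 0.09), while its mutator mean of -0.74 ± 0.49 (SD, n = 3) did (adjusted p = 0.015).

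Complex III, which moves electrons from ubiquinol to cytochrome c, showed the round difference in all of its nuclear genes described here: 9 of 9 were higher in the repeat, by 0.59 (COR1) to 1.43 (CYT1). Between rounds 2.78% of all probes were called higher. In the first round alone 9 of 9 were lower than in the ancestor, where 36.3% of all probes were. In the repeat round alone 3 were lower, 3 higher and 3 did not pass, which is near the 34.8% lower and 34.2% higher of all probes. QCR10, a small accessory subunit gene, stood at -0.084, -0.26 and -0.37 on repeat and -1.79, -1.42 and -1.55 on first-round arrays, against -0.13, 0.021 and -0.096 in the non-mutator. QCR2, the core 2 subunit gene, stood at -0.15, -0.44 and -0.32 on repeat and -0.91, -0.99 and -0.99 on first-round arrays, against -0.11, -0.14 and -0.11 in the non-mutator. These had the lowest mutator means of the complex, -0.91 ± 0.064 and -0.63 ± 0.096 (SD, n = 3). First-round values of both lay far below the non-mutator, whereas repeat values of QCR10 overlapped those of the non-mutator and repeat values of QCR2 lay just below them.

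The highest means of complex III belonged to QCR7 and RIP1. QCR7, which encodes another small subunit, had 0.43, 0.47 and 0.097 on repeat and -0.44, -0.47 and -0.59 on first-round arrays, against -0.070, -0.031 and -0.064 in the non-mutator. Its mean over both rounds was -0.085 ± 0.14 and did not pass (95% interval -0.23 to 0.061), and its rounds lay on either side of 0. RIP1, the gene of the Rieske iron-sulfur protein, had 0.62, 0.28 and 0.32 on repeat and -0.76, -0.82 and -0.81 on first-round arrays, against -0.085, 0.099 and -0.022 in the non-mutator. CYT1, the cytochrome c1 gene, had 0.38, 0.25 and 0.24 on repeat and -1.09, -1.22 and -1.10 on first-round arrays, against -0.063, -0.15 and -0.11 in the non-mutator. Repeat arrays were above and first-round arrays below all non-mutator values for CYT1 and RIP1. The CYT1 mean of -0.42 ± 0.068 (SD, n = 3; adjusted p = 0.00023) therefore averages 2 rounds of opposite sign. QCR9, a small subunit gene near the Rieske protein, had 0.19, 0.39 and -0.026 on repeat and -1.32, -1.20 and -1.002 on first-round arrays, against -0.24, -0.24 and -0.26 in the non-mutator. QCR9 was the 1 gene of complex III called in the non-mutator (adjusted p = 0.015).

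Of the remaining complex III genes, COR1 (core 1 subunit), QCR6 and QCR8 had mutator means of -0.47 ± 0.072, -0.50 ± 0.021 and -0.52 ± 0.19 (SD, n = 3). COR1 was lower in both rounds. QCR6 and QCR8 were lower only in the first round of the 2 tested alone, with repeat means of -0.087 and 0.081 against first-round means of -0.92 and -1.11.

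**Figure D2:**
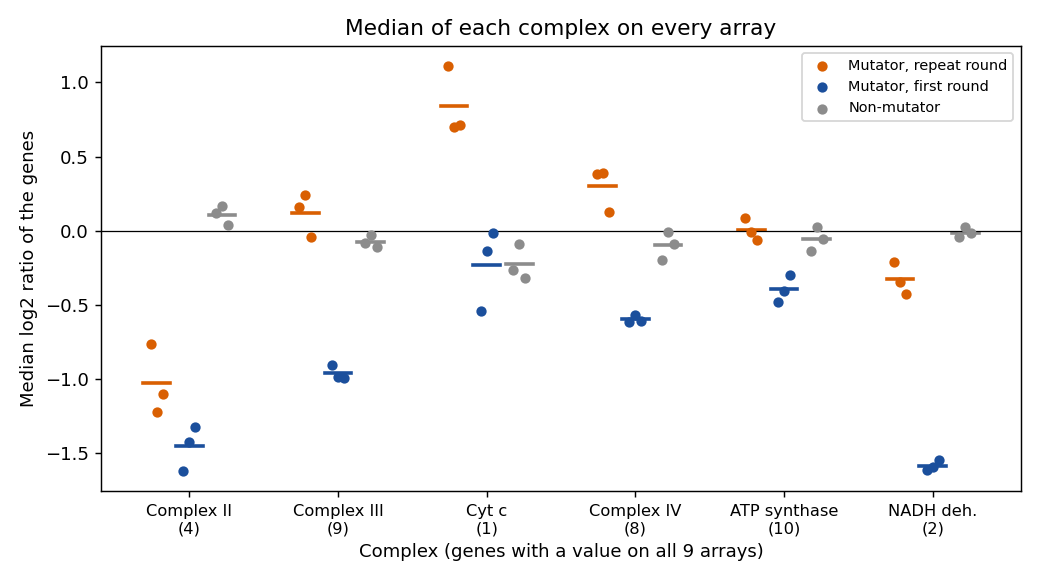
Median log2 ratio over the genes of each complex (vertical axis), 1 point for each array, with bars at the mean of 3 arrays; repeat round, first round and non-mutator stand from left to right within each complex. Complex II lies at or below -0.77 on all 6 mutator arrays, whereas medians of complexes III and IV lie at or below -0.57 in the first round and at or above -0.041 in the repeat.

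CYC1, the main isoform gene of cytochrome c and a classical target of both Hap1 and the Hap2/3/4/5 complex, was the only member that rose in the mutator mean. It stood at 1.11, 0.70 and 0.71 on repeat and -0.54, -0.14 and -0.014 on first-round arrays, against -0.27, -0.089 and -0.32 in the non-mutator. Only the repeat arrays lay above 0, and the first-round values overlapped those of the non-mutator. The mutator mean was 0.31 ± 0.039 (SD, n = 3; adjusted p = 0.0027), the repeat mean 0.84 ± 0.23 and the first-round mean -0.23 ± 0.28. On first-round arrays alone the sign was turned and the test not passed (adjusted p = 0.095).

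Complex IV reduces oxygen, and its nuclear genes encode subunits that surround the mitochondrially encoded core. In the first round 7 of 8 genes were lower and 0 higher, where 36.3% and 35.4% of all probes were. In the repeat 0 were lower and 4 higher, where 34.8% and 34.2% of all probes were. In the mean 4 of 8 fell, against 37.8% of all probes. COX4, an essential structural subunit gene, had 0.21, 0.31 and -0.0045 on repeat and -0.87, -0.91 and -1.01 on first-round arrays, against -0.20, -0.063 and -0.051 in the non-mutator. COX8 had -0.020, 0.14 and -0.077 on repeat and -0.54, -0.63 and -0.80 on first-round arrays, against -0.12, 0.17 and -0.27 in the non-mutator. In both, the first-round arrays were the low ones, and repeat values overlapped those of the non-mutator for COX8 and lay above them for COX4. Their mutator means of -0.38 ± 0.11 and -0.32 ± 0.10 (SD, n = 3) were the lowest of the complex.

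At the other end, COX7 had 0.79, 0.87 and 0.24 on repeat and -0.14, -0.065 and -0.49 on first-round arrays, against -0.098, 0.18 and -0.089 in the non-mutator. COX9 had 0.35, 0.48 and 0.23 on repeat and -0.27, -0.099 and -0.26 on first-round arrays, against 0.083, 0.36 and 0.090 in the non-mutator. Both encode small membrane subunits, and their means of 0.20 ± 0.28 and 0.070 ± 0.11 did not pass. COX12, which encodes a subunit on the intermembrane space side, had 0.69, 0.60 and 0.27 on repeat and -1.37, -0.26 and -0.59 on first-round arrays, against -0.43, -0.086 and -0.36 in the non-mutator. Its first-round array 1 lay apart from arrays 2 and 3, and the difference between rounds of 1.26 did not pass (adjusted p = 0.073). That difference did pass for COX4 (1.10), COX5A (1.06), COX13 (0.80) and COX8 (0.67). COX5A, the aerobic isoform of subunit 5, was higher in the repeat round (mean 0.48 ± 0.098) and lower in the first (mean -0.59 ± 0.037; SD, n = 3 each). COX6 and COX13 had means of -0.28 ± 0.20 and -0.22 ± 0.068 and passed as lower, with repeat means of 0.077 and 0.18 against first-round means of -0.63 and -0.63.

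**Figure D3:**
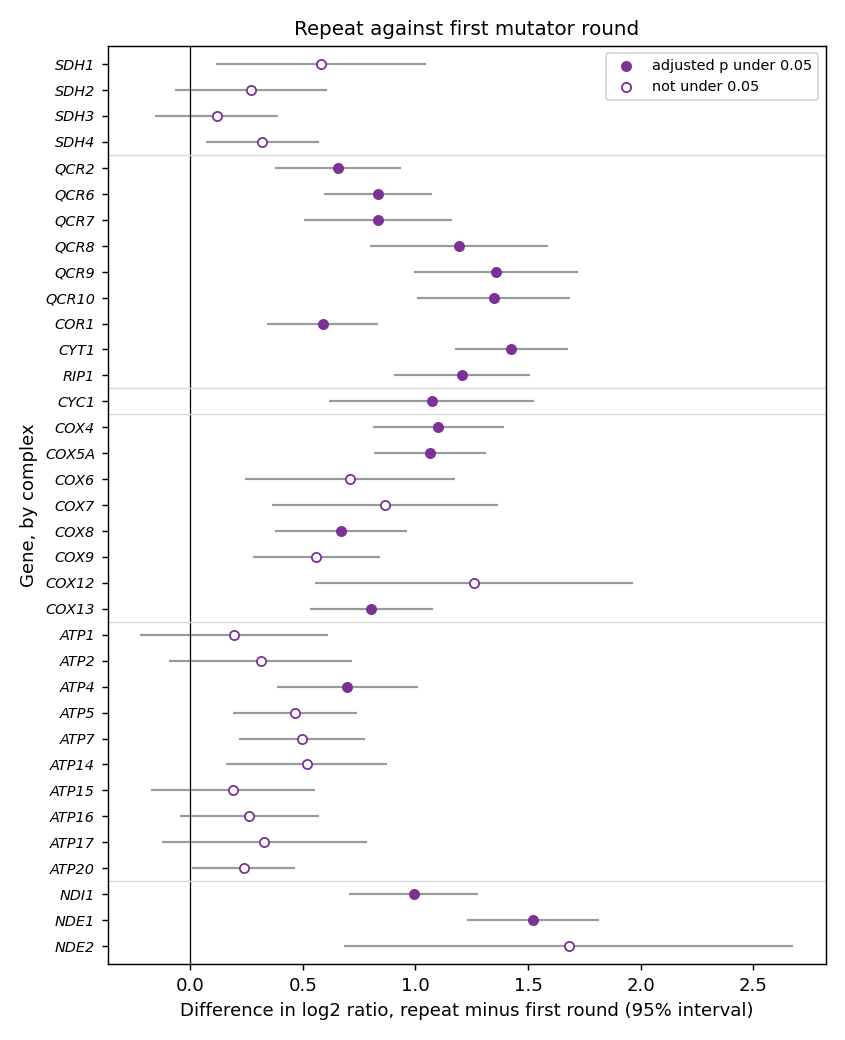
Difference in log2 ratio between rounds, repeat minus first (horizontal axis), for the 35 genes tested, from complex II at the top to the NADH dehydrogenases at the bottom; points are estimates, bars 95% intervals and filled points passed. All points lie above 0, all 9 complex III genes passed, and 1 of 10 ATP synthase genes did.

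The ATP synthase genes had a median difference between rounds of 0.32 against 1.19 and 0.83 in complexes III and IV. Of its 10 genes tested, 7 fell in the mutator mean, 8 were lower in the first round alone and 2 in the repeat alone. The shares of all probes were 37.8%, 36.3% and 34.8%. Between rounds 1 gene passed in limma, the stalk subunit gene ATP4 (0.70, adjusted p = 0.038), where 2.78% of all probes were higher. ATP15, the epsilon subunit gene of the catalytic F1 part, had -0.42, -0.26 and -0.39 on repeat and -0.35, -0.47 and -0.83 on first-round arrays, against -0.018, 0.16 and 0.098 in the non-mutator. All mutator values of ATP15 lay below all non-mutator values, and its rounds overlapped. ATP1, which encodes the alpha subunit, had -0.13, -0.53 and -0.17 on repeat and -0.67, -0.54 and -0.22 on first-round arrays, against -0.034, -0.19 and -0.21 in the non-mutator. Its rounds overlapped each other, and its repeat values also those of the non-mutator. The mutator means were -0.45 ± 0.14 for ATP15 and -0.38 ± 0.17 for ATP1 (SD, n = 3; adjusted p = 0.00091 and 0.0039).

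ATP2, the gene of the catalytic beta subunit, had 0.21, -0.20 and -0.27 on repeat and -0.58, -0.38 and -0.23 on first-round arrays, against -0.13, -0.16 and -0.21 in the non-mutator, and passed as lower in both lines. ATP5, the stalk gene whose product links F1 to the membrane part, had 0.27, 0.15 and -0.028 on repeat and -0.34, -0.31 and -0.37 on first-round arrays, against -0.20, -0.13 and -0.20 in the non-mutator. ATP5 was called lower in the non-mutator (adjusted p = 0.048) but not in the mutator mean, where its round means were of opposite sign. ATP20, the subunit g gene, stayed near 0 with 0.042, 0.14 and 0.062 on repeat and -0.15, -0.14 and -0.18 on first-round arrays, against -0.18, 0.049 and -0.045 in the non-mutator. ATP3, the gamma subunit gene, could not be tested: it had 0.48 and 1.26 on repeat arrays 1 and 2, 0.15 on first-round array 1, and in the non-mutator 1 ratio at the lowest value and otherwise none. The remaining subunit genes ATP4, ATP7, ATP14, ATP16 and ATP17 had mutator means between -0.27 (ATP7) and -0.096 (ATP17), and all but ATP17 passed, ATP14 with an adjusted p of 0.049.

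Set side by side, the complexes differed in both size and round dependence, as descriptions with no test, since genes of a complex are not replicates. The median over genes with all values was -1.03 ± 0.24 on repeat and -1.45 ± 0.15 on first-round arrays for complex II (SD, n = 3 arrays each). For complex III it was 0.12 ± 0.14 on repeat and -0.96 ± 0.048 on first-round arrays. The median of complex II was thus low in both rounds, and that of complex III in the first alone. Complex IV stood at 0.30 ± 0.15 on repeat and -0.60 ± 0.028 on first-round arrays. The ATP synthase stood at 0.0049 ± 0.075 on repeat and -0.40 ± 0.092 on first-round arrays. The distance between rounds was therefore largest in complex III (1.08) and complex IV (0.90) among the complexes with at least 4 genes, and less in complex II (0.43) and the ATP synthase (0.40). On each of the 6 mutator arrays the median of complex II lay below that of complexes III and IV and of the ATP synthase.

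In the non-mutator, of 35 genes, 4 were lower (QCR9, CYC1, ATP2 and ATP5) and 1 was higher (SDH1), where 11.1% of all probes were lower and 10.2% higher. SDH1 averaged 0.21 ± 0.039, and the other 4 averaged -0.25 ± 0.013 (QCR9), -0.22 ± 0.12 (CYC1), -0.17 ± 0.041 (ATP2) and -0.18 ± 0.036 (ATP5; SD, n = 3). The adjusted p-values of these 5 calls, 0.015 to 0.048, were within reach of the threshold. Without non-mutator replicate 2, 3 or 4 in turn limma called 0 of the 35 genes, with 6, 6 and 3 at an unadjusted p under 0.05. Calls became fewer over the whole array too: 4.29%, 2.58% and 2.73% of all probes were lower in these runs, and 4.51%, 2.48% and 2.39% higher. With all arrays scaled to the same spread, 14 genes were lower and 4 higher, where 25% of all probes were lower and 25.3% higher. The range over all 35 genes was -0.29 (COX12) to 0.21 (SDH1).

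The test of the difference between the lines, mutator minus non-mutator, passed as lower for 14 of 35 genes and as higher for 1, where 30.9% and 33% of all probes did. NDI1 (-1.74, 95% interval -1.93 to -1.56), SDH4 (-1.73, 95% interval -1.92 to -1.55), SDH2 (-1.56) and SDH1 (-1.28) were lower in the mutator by the most. Next came QCR10 (-0.84), ATP15 (-0.53), QCR2 (-0.52) and QCR6 (-0.49). CYC1 was the 1 gene higher in the mutator (0.53, adjusted p = 0.0014). With repeat arrays only, 5 genes were lower and 10 higher than in the non-mutator, where 28.5% and 28.7% of all probes were. With first-round arrays only 25 were lower and 0 higher, where 30.5% and 30.6% of all probes were. With the 6 mutator arrays as replicates, and with the round as a random block, 5 were lower (SDH1, SDH2, SDH4, NDI1 and ATP15) and 0 higher. Of all probes, 25.5% were lower and 25.8% higher with the 6 arrays, and 24.9% and 25% with the random block. Scaling all arrays to the same spread left 7 lower and 3 higher, where 25.7% and 27.8% of all probes were. It turned the differences of QCR9, COR1 and COX4 to 0.27, 0.041 and 0.0053. Complex IV had 1 of 8 genes called (COX4), and the ATP synthase 3 of 10.

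**Figure D4:**
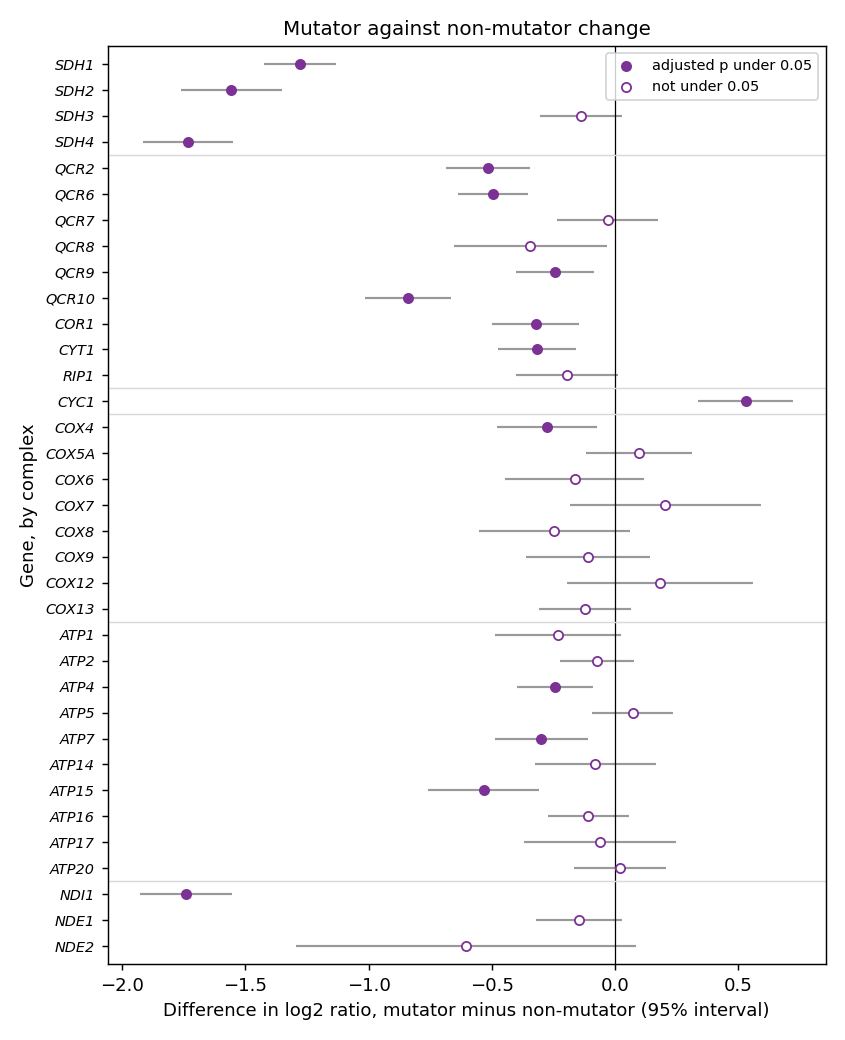
Difference in log2 ratio between the lines, mutator minus non-mutator (horizontal axis), for the 35 genes tested, with both mutator rounds averaged; points are estimates, bars 95% intervals and filled points passed. SDH1, SDH2, SDH4 and NDI1 lie at -1.28 or lower, and CYC1 is the 1 filled point above 0.

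Other genes of respiration were read from lists of isoforms, assembly factors, cofactor synthesis, carriers and regulators, of which 102 of 103 genes had a probe. In the mutator mean, where 37.8% of all probes fell and 37.3% rose, 5 of 6 isoform and paralogue genes fell and 1 rose. COX5B, the hypoxic isoform gene of subunit 5, stood at -2.41, -1.93 and -1.81 on repeat and -2.43, -2.03 and -2.08 on first-round arrays, against 0.21, 0.41 and 0.34 in the non-mutator. CYC7, the hypoxic isoform gene of cytochrome c, stood at -0.54, -0.84 and -1.07 on repeat and -2.27, -2.29 and -2.26 on first-round arrays, against 0.085, 0.15 and 0.13 in the non-mutator. All mutator values of both lay below the non-mutator. Between rounds COX5B did not pass (0.13, 95% interval -0.35 to 0.61), and CYC7 was higher in the repeat (1.45, adjusted p = 0.0061). The other paralogues rest on fewer or uneven values: SHH3, SHH4 and YJL045W each had 1 mutator array at -3.43, -2.29 or -2.58, with every other value at or above -1.48. SHH4, a paralogue of SDH4, passed as lower (-0.63 ± 0.62) and TIM18, another SDH4 paralogue that belongs to the TIM22 translocase, rose (0.34 ± 0.060; SD, n = 3 each).

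The further ATP synthase subunits and regulators fell in 4 of 6 cases and rose in 0, against the same 37.8% and 37.3% of all probes. STF2 and STF1, which encode stabilising factors of the inhibited enzyme, had mutator means of -2.59 ± 0.22 and -2.22 ± 0.053, the inhibitor gene INH1 of -0.33 ± 0.13 and the subunit gene ATP18 of -0.18 ± 0.065 (SD, n = 3), all passing as lower. Of these, STF1 and STF2 were higher in the repeat round by 0.79 and 1.26.

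Other genes build the complexes. Of 16 assembly and translation factors of complexes II and III, 28 of complex IV and 10 of the ATP synthase that could be tested, 0 passed between rounds in limma, with 4, 3 and 0 at an unadjusted p under 0.05, where 2.78% of all probes were higher and 1.73% lower. The medians of the round difference were 0.067, -0.018 and -0.14, against 0.70 for the subunits. In the mutator mean 7 of 16, 13 of 28 and 4 of 11 of them fell, and 5, 3 and 3 rose, where 37.8% of all probes fell and 37.3% rose. SDH8 (-1.11) and SDH6 (-1.10), assembly factors of succinate dehydrogenase, fell with its subunits, and CBP1 (1.05), needed for cytochrome b mRNA, and CBP2 (0.39), needed for splicing of that mRNA, rose. For complex IV, COA4 (-0.92) and the copper chaperone gene SCO2 (-0.90) fell, while PET309 (1.10), a translation activator of COX1 mRNA, and the heme farnesyltransferase gene COX10 (0.91) rose. For the ATP synthase, ATP22 (-0.62) fell and the protease gene ATP23 (1.15) and AEP2 (0.29) rose. ATP10 passed as lower (-1.21 ± 1.25) but stood at -4.74 on repeat array 2 and had no value on repeat array 1. Its other mutator values lay between -0.72 and -0.23.

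In coenzyme Q synthesis, which makes the ubiquinone that complexes II and III share, 8 of 11 genes fell and 3 rose in the mutator, against 37.8% and 37.3% of all probes. In the non-mutator 8 of the 11 rose and 0 fell, where 10.2% of all probes rose and 11.1% fell. COQ4 (-1.15 ± 0.015) and COQ6 (-0.79 ± 0.070) were lowest in the mutator, and COQ2 (0.65 ± 0.14) and COQ8 (0.30 ± 0.067) were highest (SD, n = 3). COQ8 averaged 0.31 in the non-mutator, and its difference between the lines did not pass (-0.0099). COQ2 was the 1 gene of the 11 that passed between rounds (0.68, adjusted p = 0.05 after rounding). The other electron donors fell in 3 of 3 cases in the mutator: the lactate dehydrogenase genes CYB2 (-1.18) and DLD1 (-0.38) and the glycerol-3-phosphate dehydrogenase gene GUT2 (-0.73). In limma GUT2 (-0.54, adjusted p = 0.0047) and DLD1 (-0.25, adjusted p = 0.0099) were lower in the non-mutator too. Their differences between the lines did not pass (-0.19 and -0.13), while that of CYB2 did (-1.12). Among 5 carriers, the minor phosphate carrier gene PIC2 fell, to -3.11 ± 0.053, on all 6 mutator arrays at or below -2.83. The main one, MIR1 (0.36 ± 0.11), and the ADP/ATP carrier gene AAC3 (0.29 ± 0.098) rose. AAC3 rose in the non-mutator too (0.37, adjusted p = 0.0073 in limma), and its difference between the lines did not pass (-0.083).

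Of 7 genes for subunits encoded in mitochondrial DNA, 5 rose and 2 fell in the mutator mean, where 37.3% of all probes rose and 37.8% fell. COX1 (1.28 ± 0.14) and COX3 (0.99 ± 0.071) were highest, and the calls as lower were those of ATP8 (-0.46 ± 0.16) and ATP6 (-0.18 ± 0.14; SD, n = 3). On each non-mutator array, however, ATP6, ATP8 and OLI1 lay in 1 narrow window of 0.002 on the log2 scale with 291 to 324 other probes, where 21.5 to 25.4 probes per such width lay nearby. ATP8 also lay in the most crowded such window of 4 mutator arrays and ATP6 in that of 3 (ratios with no more than 1 decimal left out), and whether their spots were saturated was not tested. Of the 36 nuclear genes, 0 lay in that window on a non-mutator array, and on mutator arrays 1 did, RIP1 on repeat array 2, where 20 probes shared it. Without the 3 genes, 4 of 4 rose (COX1, COX2, COX3 and COB). Between rounds 0 of 7 passed in limma (4 at an unadjusted p under 0.05), where 2.78% of all probes were higher and 1.73% lower. All 7 differences still lay above 0, as did 47.6% of all probes, with a median of 0.51 and a highest value of 0.67. COB, which encodes cytochrome b of complex III, differed between rounds by 0.044 (adjusted p = 0.9).

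Of 9 regulator genes, 1 was higher and 1 lower in the repeat round, and 7 did not pass, where 2.78% of all probes were higher and 1.73% lower. HAP4, the regulated activator subunit, stood at 0.57, 0.13 and 0.11 on repeat and -1.20, -0.94 and -0.89 on first-round arrays, against -0.084, 0.042 and -0.11 in the non-mutator. HAP1, the heme-responsive activator gene, stood at -0.59, -0.83 and -0.69 on repeat and 1.11, 1.07 and 1.12 on first-round arrays, against -0.23, -0.31 and -0.19 in the non-mutator. HAP4 was thus low in the first round, as 31 of the 35 member genes tested were. HAP1 was high in the first round and low in the repeat. The reverse, low in the first round and high in the repeat, was held by 7 of the 35 members, while 10 were low in both. The difference between rounds was 1.28 for HAP4 (95% interval 0.88 to 1.69, adjusted p = 0.012) and -1.80 for HAP1 (-2.06 to -1.54, adjusted p = 0.0037). The mean of HAP1 over both rounds, 0.20 ± 0.073 (SD, n = 3), passed as higher although it hides rounds of opposite sign.

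Among the regulators that did not pass between rounds, HAP5, a DNA-binding subunit gene of the Hap complex, lay below 0 on all 6 mutator arrays (mean -0.93 ± 0.037), and ADR1, an activator gene of growth on ethanol, fell too, with -0.72 ± 0.17. ROX1, which encodes a repressor of hypoxic genes, rose by 1.003 ± 0.29 (SD, n = 3; adjusted p = 2e-04). HAP2 and CAT8 had means of -0.37 and -0.37 and passed as lower, and HAP3 and MIG1 had means of 0.039 and -0.15 and did not pass. In the mutator mean 5 of the 9 regulator genes fell and 2 rose, where 37.8% of all probes fell and 37.3% rose. Whether any regulator's level bears on that of the subunit genes was not tested.

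**Figure D5:**
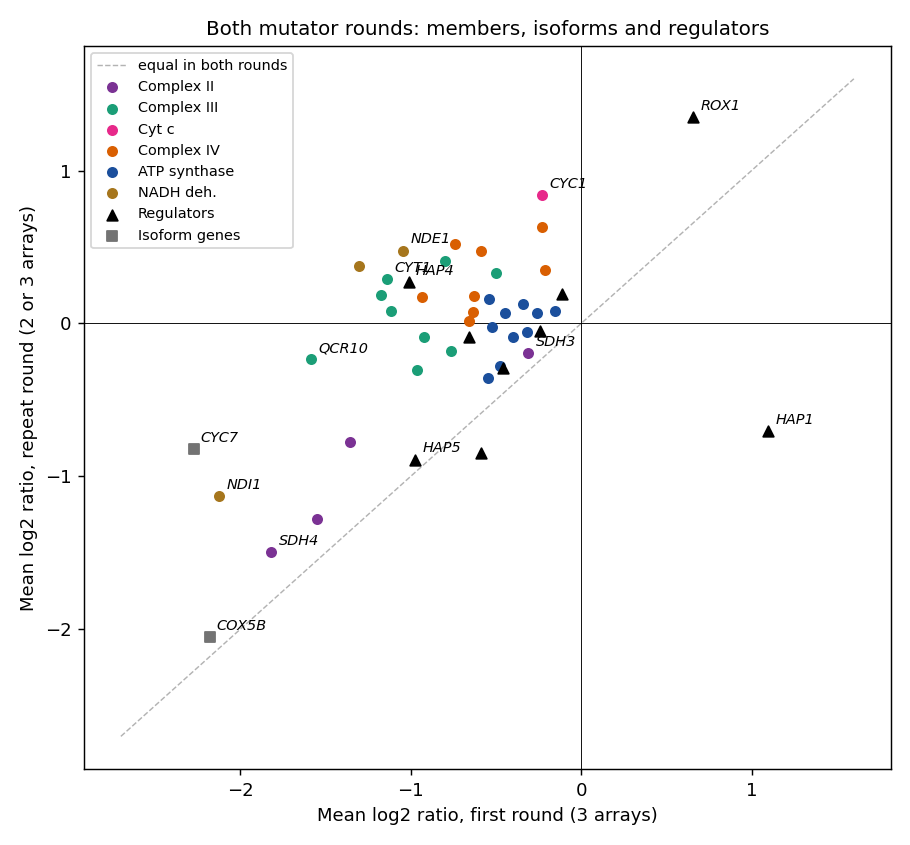
Mean log2 ratio on repeat arrays (vertical axis) against that on first-round arrays (horizontal axis) for the 35 genes with more than 1 value in each round, coloured by complex, with 9 regulator genes as triangles and the isoform genes CYC7 and COX5B as squares; the dashed line marks equal values. All members lie above the line, complex II genes lie 0.12 to 0.58 above it, and HAP1 lies far below it.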

How the data were processed

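Ratios of 9 two-colour arrays were analysed. What was deposited is a linear ratio of the 2 dyes for each probe, per the labels and the values, with the evolved strain in Cy5 and its ancestor in Cy3. By these labels no array had the dyes swapped. In a test against 0 a dye effect of a probe therefore cannot be told apart from a change, also for genes called in both lines. The background correction and normalization behind these ratios are not stated in any source used here. Ratios at the floor of 0.01 were set to missing. The rest were turned to log2 and centred on each array's median. Mutator arrays of the same evolved RNA number in both rounds were averaged to 1 replicate. In R 4.3.3, limma 3.58.1 (lmFit and eBayes) tested 6866 probes with values in at least 2 replicates of each group. The rounds were compared over 6571 probes of the 6 mutator arrays, and each round was tested alone with the non-mutator arrays. The threshold was a Benjamini-Hochberg adjusted p of 0.05.

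Probes were named through their systematic names, of which 5840 of 6377 matched a gene of the R64 table. The genes and lists were chosen with earlier results of these data known. Per-array values are given for all genes of small groups, for the 2 lowest and 2 highest mutator means of the larger complexes, for genes called in the non-mutator and for the 6 largest differences between rounds. In the other lists the 2 lowest and 2 highest called genes are named. CYC7, COX5B and HAP4 are named always, and SHH3, YJL045W, HAP2, HAP3, CAT8 and MIG1 are added to complete a list or because a result turns on them, after their values were seen. The number of arrays limits the precision, and the effect of each alternative setting is given in the closing section.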

Additional observations from a re-analysis of the deposited data

Results flagged for a closer look

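For 15 of the 35 genes the change in the mutator differed from that in the non-mutator by limma's test of the difference itself (adjusted p under 0.05 over all 6866 probes), where 33% of all probes were higher and 30.9% lower. The differences, mutator minus non-mutator on the log2 scale, were -1.28 for SDH1, -1.56 for SDH2 and -1.73 for SDH4 in complex II. In complex III they were -0.52 for QCR2, -0.49 for QCR6, -0.24 for QCR9, -0.84 for QCR10, -0.32 for COR1 and -0.32 for CYT1. Among the rest they were -1.74 for NDI1, -0.28 for COX4, -0.24 for ATP4, -0.30 for ATP7 and -0.53 for ATP15, and CYC1 was the 1 gene with a higher value in the mutator, at 0.53. With the 6 mutator arrays as replicates, and with the round as a random block, 5 of the 15 passed (SDH1, SDH2, SDH4, NDI1 and ATP15), and with arrays scaled to the same spread QCR9, COR1 and COX4 turned sign.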

How the results depend on the processing

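Calls in the mutator held for 8 of 27 genes in every alternative run, and the median and the counts depended on the round. With repeat arrays only, 10 genes were lower in the mutator and 9 higher (median 0.077, sign turned), with 3 lower in complex III, 0 in complex IV, 2 in the ATP synthase and 1 among NADH dehydrogenases, and 5 were lower and 10 higher than in the non-mutator. Of all probes, 34.8% were lower and 34.2% higher in the mutator there, and 28.5% and 28.7% in the difference. With first-round arrays only, 31 were lower and 0 higher (median -0.63), with 7 lower in complex IV, and 25 were lower and 0 higher than in the non-mutator. The shares of all probes were 36.3% lower and 35.4% higher in the mutator, and 30.5% and 30.6% in the difference. The sign turned on repeat arrays for the mutator values of QCR8 (0.081), QCR9 (0.19), CYT1 (0.29), RIP1 (0.41), COX4 (0.17), COX6 (0.077), COX8 (0.015), COX13 (0.18), ATP4 (0.16), ATP14 (0.070), NDE1 (0.48) and NDE2 (0.38), and for the differences from the non-mutator of QCR9 (0.44), CYT1 (0.40), COX4 (0.27) and ATP4 (0.11). On first-round arrays it turned for CYC1, to -0.23 in the mutator and -0.0062 for the difference. With arrays scaled to the same spread, the differences of QCR9 (0.27), COR1 (0.041) and COX4 (0.0053) turned. In the mutator 11 genes were lower and 0 higher (27.8% and 24.7% of all probes), with a median of -0.18. Of these, 0 were in complex IV, 1 in the ATP synthase and 1 among NADH dehydrogenases. In the non-mutator 14 were lower and 4 higher (25% and 25.3% of all probes), and in the difference 7 lower and 3 higher (25.7% and 27.8% of all probes).

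With the 6 mutator arrays as replicates, 16 were lower and 0 higher (5 lower in complex III, 1 in complex IV, 1 among NADH dehydrogenases), and 5 lower and 0 higher in the difference. Of all probes, 35.2% were lower and 35.6% higher in the mutator, and 25.5% and 25.8% in the difference. With the round as a random block, 13 were lower and 0 higher (4 lower in complex III, 0 in complex IV, 4 in the ATP synthase, 1 among NADH dehydrogenases), and 5 lower and 0 higher in the difference. The shares of all probes were 34% lower and 33.9% higher in the mutator, and 24.9% and 25% in the difference. Without centring, 1 was lower in complex IV and 4 in the ATP synthase, where 32.1% of all probes were lower, and the median was -0.18. In the non-mutator, 0 were lower and 0 higher with the 6 mutator arrays as replicates, with the random block (0 at an unadjusted p under 0.05 in both), with repeat or first-round arrays only (4 and 3) and at an adjusted p under 0.01. In these settings 2.28% to 6.64% of all probes were lower in the non-mutator and 1.96% to 6.25% higher. At an adjusted p under 0.01, 2 complex IV genes were lower in the mutator (32.2% of all probes). Between rounds 9 genes were higher at that threshold (0.715% of all probes), 5 in complex III, 2 in complex IV and 0 in the ATP synthase.

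Leaving out 1 replicate gave 21 to 26 genes lower and 1 to 2 higher in the mutator (median -0.31 to -0.24; 2 to 4 lower in complex IV), 0 to 4 lower and 0 to 1 higher in the non-mutator, and 10 to 19 lower and 1 to 2 higher in the difference. Of all probes, 35.8% to 37.8% were lower and 34.9% to 36.7% higher in the mutator. In the non-mutator 2.58% to 14.3% were lower and 2.39% to 13.5% higher, and in the difference 27.3% to 32.8% and 27.7% to 34.6%. Between rounds, leaving out 1 evolved number gave 0 to 6 higher genes, where 0 to 1.34% of all probes were higher. By complex these were 0 to 3 in complex III, 0 to 1 in complex IV, 0 in the ATP synthase and 0 to 2 among NADH dehydrogenases. Whether the RNA numbers pair the samples could not be settled. Deviations from the mean of each round correlated at -0.10, -0.0038 and -0.044 between same-numbered arrays of both rounds. Those of both lines correlated at -0.036 and 0.017, by the numbers in the titles. These values show no pairing, but with 3 arrays to a mean array noise can hide a shared RNA, and repeat array 2 has ancestor number 1. For the non-mutator arrays the numbers in titles and descriptions disagree, so which arrays share a number there is in doubt. With the replicate block, 6 genes were higher between rounds (3 in complex III, 2 in complex IV, 0 in the ATP synthase, 1 among NADH dehydrogenases) and 9 lower in the difference between lines. The shares of all probes were 0.761% higher between rounds and 25.3% lower in the difference. The block could not be fitted for means against 0. Keeping floor ratios, other filters on missing values, robust eBayes and, chosen after seeing the data, setting ratios with no more than 1 decimal to missing moved none of these counts by more than 1.5 times. The cause of these shifts was not tested. Labels do not say what separated the rounds, and line m8 is 1 line.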
